A study of Mus musculus with 415 samples.

Results

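The regions described here are the accessible regions inside the large histone gene cluster of mouse chromosome 13. Membership was set by position, with no measured value in the rule. A region of the deposited table belonged if it overlapped 1 of 2 blocks given on the mouse genome build mm9, a first block from 21800000 to 22140000 (340 kb) and a second block from 23570000 to 23870000 (300 kb). The first block held 18 regions and the second 22, so 40 of the 23180 regions of the table were members, 0.173% of all.

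The assay was ATAC-seq of single cells, where Tn5, a transposase, inserts adapters wherever chromatin is accessible. Each sample was 1 cell from R1 mouse embryonic stem cells, which spent 48 hours as hanging-drop embryoid bodies and then 4 days in retinoic acid, at 0.5 mM according to the labels. A Fluidigm C1 chip served for capture and tagmentation. All cells carried the same treatment, and the labels name no separate cultures, so the series is 1 sample, there is no untreated group, and cells are not replicates. No p-value was computed, and the exact (Clopper-Pearson) 95% intervals below cover the counting of cells only.

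Histones are the proteins around which DNA is wound. The core histones H2A, H2B, H3 and H4 form the nucleosome, and the linker histone H1 binds the DNA between nucleosomes. The replication-dependent genes for these proteins are present in many copies, are transcribed mainly while DNA is being copied, and yield messenger RNAs that end in a stem-loop in place of a poly(A) tail. Embryonic stem cells divide rapidly and use these genes heavily.

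The deposited table pairs no region with a gene, and the gene table at hand, from RefSeq, is on the later build GRCm38.p6. Coordinates were not carried between builds, so the genes below are named in their order along the chromosome and no region is assigned to a gene. In that order, histone genes formed 2 runs. The first, from H2bc13 to H2bc11, held 24 histone genes, of which 1 was for H1, 8 each were for H2A and H2B, 2 for H3 and 5 for H4. The second, from H4c8 to H1f1, held 30, of which 5 were for H1, 6 each for H2A, H2B and H4, and 7 for H3. These counts include 1 pseudogene in each run. The surroundings of the histone genes differed between the runs. The first run was interleaved with 31 tRNA genes and the protein-coding genes Zfp184, Pom121l2 and Prss16. The second held no tRNA gene, and Hfe, which acts in iron uptake, was its only other protein-coding gene. Most genes between the runs were of 2 kinds, 75 V1r vomeronasal receptor genes or pseudogenes, a family of pheromone receptors of sensory neurons, and 46 tRNA genes. Since no region is tied to a gene, an open region in a block cannot be taken as that of a histone gene.

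The histone promoters of the 2 runs are shown here because they carry short motifs whose frequency differs between the histone classes. RefSeq promoter entries matched 49 of the 54 histone genes by gene identifier, with 50 entries in all. The 250 bases before each start were searched on both strands for 4 motifs. CCAAT is the core of the CCAAT box. TATAAA is a form of the TATA box. The octamer ATTTGCAT is bound by POU factors. The string AAACACA is part of a box known from H1 promoters. No matches to different motifs overlapped each other in these promoters. The following 5 are the first of each class in symbol order, on build GRCm38.p6, written 5′ to 3′ on the gene's strand, with every match in capitals.
H1f1: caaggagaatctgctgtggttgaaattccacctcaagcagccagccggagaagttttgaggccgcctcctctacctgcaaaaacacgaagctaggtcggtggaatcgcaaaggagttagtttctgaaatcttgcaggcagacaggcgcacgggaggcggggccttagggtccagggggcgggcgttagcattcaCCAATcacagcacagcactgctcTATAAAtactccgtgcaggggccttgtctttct
H2ac10: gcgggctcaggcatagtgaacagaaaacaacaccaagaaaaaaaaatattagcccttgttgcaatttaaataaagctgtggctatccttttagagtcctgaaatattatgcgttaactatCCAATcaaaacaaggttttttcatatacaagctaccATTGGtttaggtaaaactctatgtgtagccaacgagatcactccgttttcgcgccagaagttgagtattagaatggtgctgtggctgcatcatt
H2bc11: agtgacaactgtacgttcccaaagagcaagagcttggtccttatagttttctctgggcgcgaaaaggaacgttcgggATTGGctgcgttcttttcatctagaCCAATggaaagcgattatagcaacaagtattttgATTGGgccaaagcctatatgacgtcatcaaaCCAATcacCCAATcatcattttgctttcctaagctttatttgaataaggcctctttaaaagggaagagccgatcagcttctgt
H3c10: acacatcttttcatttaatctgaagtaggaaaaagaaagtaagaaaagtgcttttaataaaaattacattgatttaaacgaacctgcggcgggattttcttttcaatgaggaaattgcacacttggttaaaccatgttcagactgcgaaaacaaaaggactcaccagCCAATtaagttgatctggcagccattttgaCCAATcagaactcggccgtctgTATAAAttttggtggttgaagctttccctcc
H4c1: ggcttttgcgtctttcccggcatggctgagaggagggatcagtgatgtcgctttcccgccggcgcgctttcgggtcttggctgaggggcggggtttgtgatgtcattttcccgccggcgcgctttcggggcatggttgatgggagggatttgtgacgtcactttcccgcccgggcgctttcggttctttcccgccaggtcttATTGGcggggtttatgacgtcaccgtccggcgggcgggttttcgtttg
The H1f1 stretch is chr13:23763418-23763667 (plus strand), that of H2ac10 is chr13:23533625-23533874 (plus), that of H2bc11 is chr13:22042948-22043197 (plus), that of H3c10 is chr13:21717378-21717627 (plus) and that of H4c1 is chr13:23761250-23761499 (minus), all on GRCm38.p6. H2bc11 holds 5 CCAAT matches, H2ac10 and H3c10 hold 2 each, and H1f1 and H4c1 hold 1 each. TATAAA is present in H1f1 and H3c10. None of the 5 holds ATTTGCAT or AAACACA, so the printed H1 promoter lacks the string known from H1 promoters.

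Across the 50 histone promoters, CCAAT was present in 42 (84%), against 33.8% of all 32851 promoters of the RefSeq table. It was present in every H1 (6), H2A (12), H2B (14) and H3 (7) promoter and in 3 of the 11 H4 promoters. TATAAA was present in 24 (48%) against 12.4% of all promoters. ATTTGCAT was present in 4 H2A and 5 H2B promoters and in none of the H1, H3 or H4 promoters, where 1.601% of all promoters held it. AAACACA was present in 5 of the 6 H1 promoters and in 2 of all the others, against 6.25% of all promoters. In 9 cases an H2A and an H2B gene faced away from each other with overlapping 300-base promoter windows, so the same match can count for both genes. The H2B gene of 1 of these pairs is listed as H4bc24 and was classed by its older symbol, Hist1h2br. The median GC content of the 250 bases was 44.6% in the histone promoters and 52.4% over all promoters. A match is a string of letters and shows no bound factor.

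Copies of histone genes are alike in sequence, which bears on where reads are placed. Of the 50 histone promoter windows, 6 (12%) shared a stretch of at least 74 bases, the read length inferred from the deposited values, with the window of another gene elsewhere, against 5.81% of all promoters. None of the 5 printed promoters was among the 6. Coding sequence was not compared, and how reads that fit several places were treated is not given in the sources used here.

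The regions lay densely in both blocks. The first block had 5.29 regions per 100 kb and the second 7.33, where all 26380 bins of 100 kb from the start of a chromosome to its last region averaged 0.879, with a 95th percentile of 4 and a 99th of 6. Counted in the same bins, the 7 that start in a block held a mean of 5.86 regions, a median of 5 and at most 14. The stretch of 1430 kb between the blocks had 15 regions, or 1.05 per 100 kb. In that stretch 1234 kb in a row held no region, and 14 of its 15 regions lay beyond this gap, towards the second block. Within the first block the regions fell into groups of 10 and 8 on either side of an empty 152.5 kb. In the second block the longest empty stretch was 60.9 kb, between its regions 15 and 16.

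Any deposited signal above 0 counted as open. Signal is given in fragments, where 1 fragment stands for the commonest value above 0. That this value is 1 pair of 74-base reads is inferred from the values, and no source used here states it. Depth differed widely between cells, from 756 to 12267 open regions in the whole table (median 3928), so that a region with no signal in a shallow cell may not have been sampled.

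The histone regions were open in ordinary shares of cells. The median member was open in 16.99% of cells (quartiles 11.7% and 25.7%, range 7.71% to 39.5%), and the median of all 23180 regions was 14.5% (quartiles 9.88% and 23.6%). The first block had a median of 16.4% and the second of 18.3%. Members were wider than the regions of the table, with a median width of 966.5 bp against 762 bp. The shares were not adjusted for width. A share of 25% of cells or more was reached by 11 of 40 members (27.5%), 4 in the first block and 7 in the second, where 22.6% of all regions reached that share. No member reached 50% of cells. When every cell was thinned to 1500 open regions (33 cells had fewer and were dropped), the median was 5.90% for the members and 4.96% for all regions. The density of open regions in the blocks thus went with a typical, not a high, share of cells per region.

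**Figure D1:**
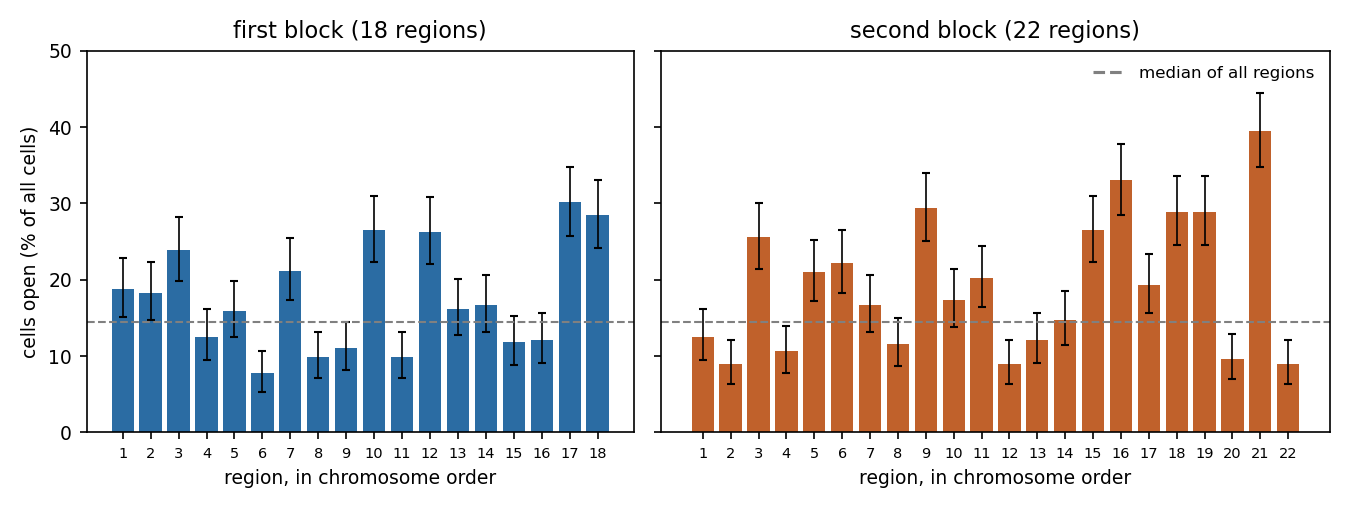
Share of all cells in which each histone block region was open (vertical axis, percent of cells), with regions in chromosome order on the horizontal axis. Bars are observed shares, error bars are exact 95% intervals over cells, and the dashed line is the median of all 23180 regions, 14.5%. In the first block the 2 last regions reach 30.1% and 28.4%, and in the second block the region 21 stands highest at 39.5%.

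In the first block, the most widely open region was the 17th, on chromosome 13 from 22126940 to 22128108 (mm9), open in 30.1% of cells (interval 25.7% to 34.8%). Its neighbour from 22134511 to 22135343 was open in 28.4% (24.1% to 33.04%). The region from 21878740 to 21879725, the last before the empty 152.5 kb, was open in 26.5% (22.3% to 31.03%). That from 22036724 to 22037561, the second after it, was open in 26.3% (22.1% to 30.8%). The region from 21813400 to 21814113 followed with 23.9% (19.8% to 28.3%). The intervals of these 5 overlap, so their order is not established. The least open were the region from 21842188 to 21842571 with 32 cells (7.71%, 5.33% to 10.7%) and, with 41 cells each (9.88%, 7.18% to 13.2%), those from 21871258 to 21871582 and from 22032189 to 22032795. The other 10 regions of the block were open in 11.1% to 21.2% of cells.

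In the second block, the region from 23852795 to 23854693, the widest member at 1898 bp, was open in 39.5% of cells (interval 34.8% to 44.4%), a share that 93.7% of all regions of the table stayed below. The next was the region from 23775428 to 23776562 with 33.01% (28.5% to 37.8%), whose interval overlaps the first. The region from 23653948 to 23655291 was open in 29.4% (25.1% to 34.04%). The neighbours from 23830579 to 23831841 and from 23837346 to 23838890 were open in 28.9% each (24.6% to 33.5%). At the low end, 3 regions were open in 37 cells each (8.92%, 6.36% to 12.1%), those from 23610869 to 23611596, from 23667515 to 23667766 and from 23864492 to 23864741. The other 14 regions were open in 9.64% to 26.5% of cells.

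Open values in the blocks mostly stood for 1 fragment. The median member had more than 1 fragment in 22.5% of the cells in which it was open, and the median region of the table in 24.2%. The widest region had the most fragments per open cell, a mean of 1.47. The largest signal in 1 cell was 6.90 fragments, in the region from 23830579 to 23831841, followed by 6.32 fragments in the widest region. The table has 14 regions whose open cells hold a median of 2.5 fragments or more, and none of them lay in the blocks. Together the members held 0.156% of all fragments, slightly under their 0.173% of all regions. The narrowest member, from 23625614 to 23625782, was open in 44 cells (10.6%, 7.81% to 13.97%) with a median of 0.75 fragments. Wider regions tended to be open in more cells. Spearman's rho between width and share was 0.387 over the 18 regions of the first block, 0.749 over the 22 of the second and 0.545 over all regions of the table, values given as descriptions, since a wider region also has more room for a read.

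Of the 40 regions, 6 were open in the median cell (quartiles 4 and 10, range 0 to 32). In the first block the median was 3 (range 0 to 15) and in the second 4 (range 0 to 19). The number followed the cell's depth, with Pearson's r of 0.784 and Spearman's rho of 0.729 across cells against open regions in the whole table. With cells in 4 depth classes of like size, the shallowest class (756 to 2539 open regions) had a median of 3 and a range of 0 to 10. The deepest (5697 to 12267) had a median of 11 and a range of 2 to 32. No histone region was open in 12 cells (2.89%, interval 1.503% to 4.996%), and 10 of these were in the shallowest class. The cell with the most, 32 of 40, had 13 of the first block and 19 of the second open, at 12021 open regions in the table. No cell had all 40 open.

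**Figure D2:**
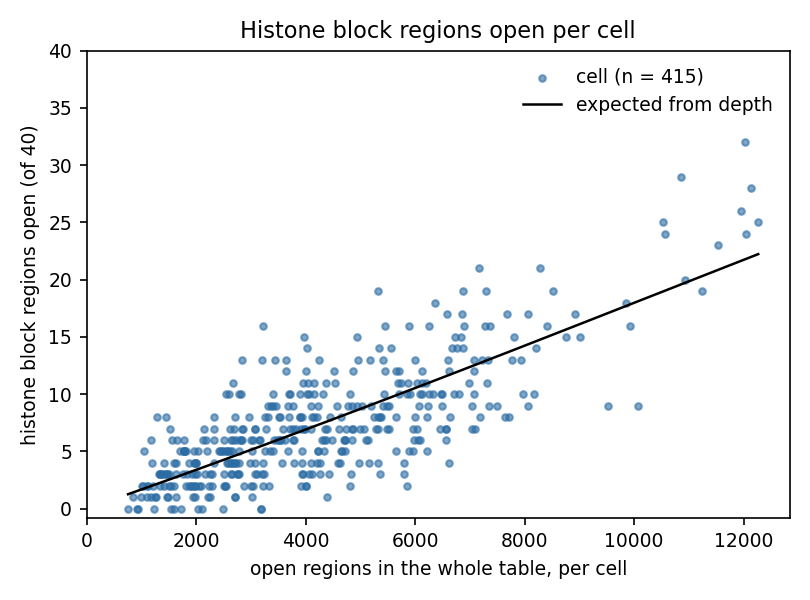
Histone block regions open per cell (vertical axis, of 40) against open regions in the whole table (horizontal axis). Each point is 1 cell and the line is the number expected from depth. Counts run from 0 to 32, follow depth, and scatter around the line, with a variance 1.97 times that of independent regions under the depth model.

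The spread around the number expected from depth was measured with a model. The expected probability that a region was open in a cell was set to 1 − exp(−region rate × cell rate), with rates matched to each region's number of open cells and each cell's number of open regions over the whole table. Regions that opened independently at these probabilities would give a variance of open regions per cell around expectation equal to the expected variance, a ratio of 1. The observed ratio was 1.97 for both blocks together, 1.34 for the first block and 1.63 for the second. By depth the ratio for both blocks was 1.54 in the shallowest class, 2.003 and 1.91 in the 2 middle classes, and 2.15 in the deepest. The fit did not remove depth wholly from the members. The mean number open was 3.19 in the shallowest class (2.98 expected) and 6.07 in the next (5.41 expected). In the deeper classes it was 7.73 (8.14 expected) and 12.7 (13.2 expected). The part of these departures in the spread and in the co-opening below was not tested. Such a ratio grows with the number of regions counted whenever regions open together, so it is not compared here with sets of other sizes. The cell with 32 open regions had 21.8 expected, and the next, with 29, had 19.6 expected. Depth alone placed the deepest cells at 22.2 or fewer.

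An excess of open histone regions in 1 block went with an excess in the other. The number of open regions minus the expected number, divided by its expected standard deviation, had a Pearson's r of 0.300 and a Spearman's rho of 0.299 between the blocks over all cells, and r was 0.315 without the 2 cells farthest from the median. Before this correction for depth, r between the blocks was 0.676. With the cells divided by the number in their title into 4 consecutive sets of like size, r was 0.377, 0.188, 0.386 and 0.276. Within the 3 cell clusters described below it was 0.339, 0.337 and 0.185. The same measure for the 15 regions between the blocks had an r of 0.121 with the first block and 0.201 with the second, and these rest on fewer regions, which lowers r. The points share their cells and their libraries, and no p is given. The departures from the fit by depth class, given above, enter these values, and their share was not tested.

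Pair by pair, the co-opening was weak and spread over many pairs. It was measured as the correlation over cells of depth-corrected values (the open or closed value minus its expected probability, divided by its expected standard deviation). The mean was 0.0180 over all pairs within the first block, 0.0262 over all pairs within the second and 0.0227 over all pairs with 1 region in each block. Positive values made up 60.1%, 70.6% and 64.6% of these pairs. Single pairs ranged from -0.131 to 0.190, and a correlation of this size in so sparse a table is no finding about that pair. Counted in cells, both regions of a pair were open together 7880 times between the blocks, summed over pairs, where 7386 were expected from depth (ratio 1.07). Within the blocks the ratios were 1.09 and 1.05. Single pairs past 1.5 times the expected count numbered 10 (6.54% of pairs) within the first block and 8 (3.46%) within the second, where 6.28% of all pairs of the table under 400 kb apart did so. Between the blocks they numbered 25 (6.31% of pairs), where 4.92% of all pairs at those distances did so.

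**Figure D3:**
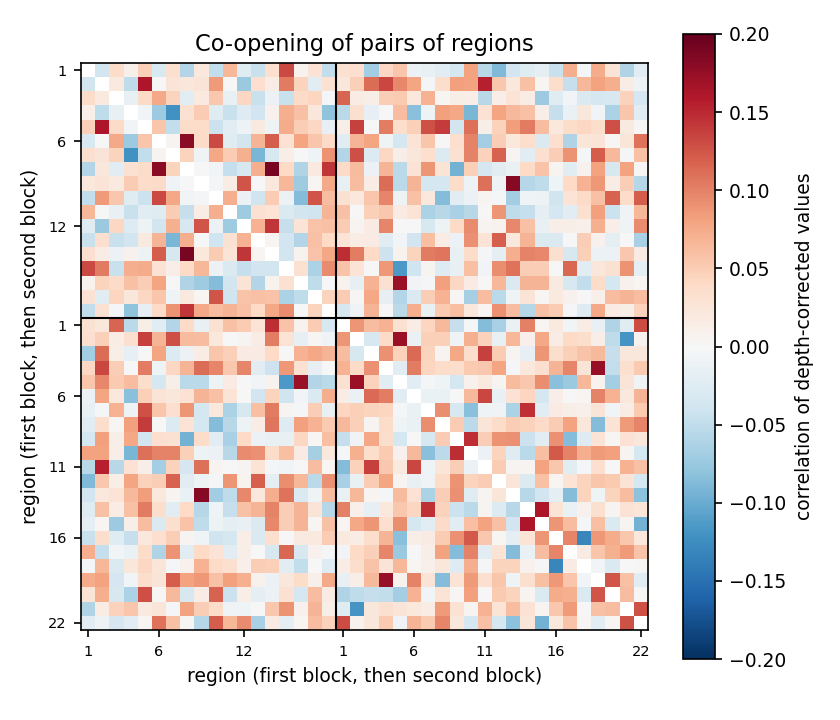
Correlation over all cells of depth-corrected values for every pair of the 40 histone block regions, with regions in chromosome order on both axes, the first block before the second, and black lines between the blocks. Red is positive, blue negative. Positive values are spread over the squares within blocks and over the rectangle between them, where 64.6% of pairs are positive.

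The co-opening between the blocks was larger than is usual at that distance, while that within the blocks was closer to the usual values. Over the whole table, nearby regions are open together more often than distant ones. Weighted to the distances of the pairs within the first block, all same-chromosome pairs of the table had a mean correlation of 0.0168, near the block's 0.0180. For the second block the table gave 0.0189 against the block's 0.0262. The regions of a pair between the blocks were 1474 to 2061 kb apart, and 157479 pairs of the table at those distances had a mean of 0.00742, with chromosome means of 0.00586 to 0.00995 (SD 0.00112 over 20 chromosomes), against 0.0227 between the blocks. Chromosome 13 without the pairs of members had 0.00701. A chromosome's mean rests on 1045 to 18640 pairs and that between the blocks on fewer than any of these, so the spread over chromosomes is no error of the smaller set. The value between the blocks was also about as high as those within them, though the distances were far longer. By distance, the first block was below the table at 2 to 10 kb, with -0.00742 over 12 pairs against 0.0327, and above it at 200 to 400 kb, with 0.0195 over 67 pairs against 0.0119. The second block had a mean correlation above the table in all 5 distance classes. It ran from 0.0522 under 2 kb (4 pairs) to 0.0210 at 50 to 200 kb (98 pairs). The count of cells with both regions open, over that expected, ranked the blocks otherwise. In the second block this ratio was 1.03 at 50 to 200 kb, where the table had 1.04. It was also below the table at 2 to 10 kb and at 200 to 400 kb, and above it elsewhere. In the first block the ratio was below the table at 2 to 10 kb and above it from 10 kb on, with 1.10 against 1.03 at 200 to 400 kb. Between the blocks it was 1.07 against 1.02.

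**Figure D4:**
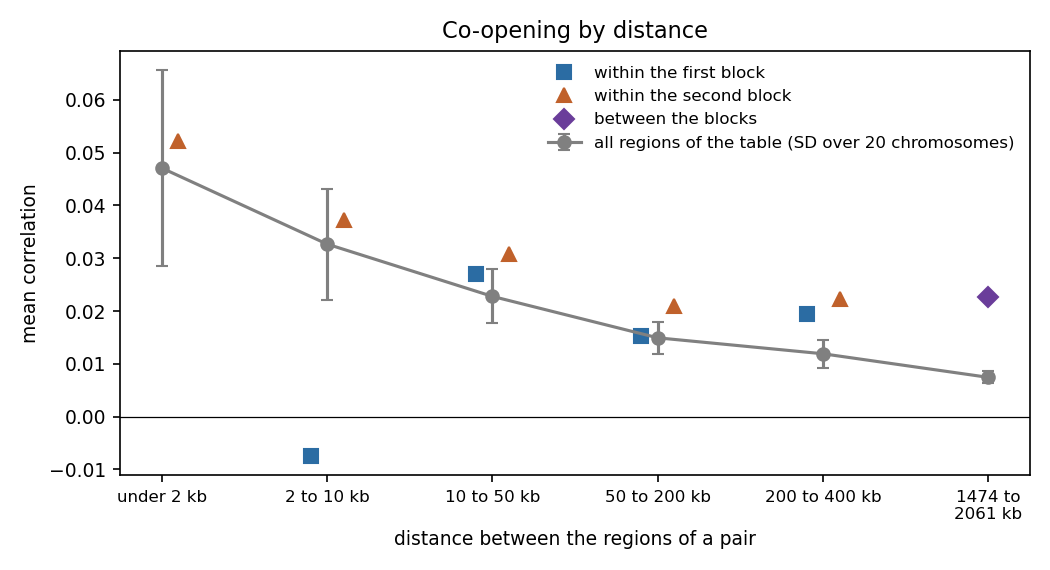
Mean correlation of depth-corrected values (vertical axis) by the distance between the 2 regions of a pair (horizontal axis, classes). Grey points are all same-chromosome pairs of the table with the SD over 20 chromosomes, and coloured symbols are pairs of histone block regions. The pairs between the blocks stand at 0.0227, where the table stands at 0.00742.

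The difference at long distance was present under the other settings for which the whole table was recomputed. The value between the blocks was 3.08 times that of the table, here taken without the pairs of members (0.0227 against 0.00738). With more than 1 fragment required for an open region it was 1.85 times (0.00954 against 0.00516), hardly above the highest chromosome at 0.00884, and with only cells of median depth or deeper 2.89 times (0.0293 against 0.0101). With depth fitted within each cell cluster it was 3.06 times (0.0218 against 0.00714). In the 4 sets of cells by title number, which share no cell, it was 0.0301, 0.0172, 0.0245 and 0.0173, where the table gave 0.00685, 0.00751, 0.00822 and 0.00750. In the last set 1 chromosome reached 0.0172, so the block value there was hardly above the highest chromosome. When cell depth was taken from chromosome 13 outside the blocks, in place of the whole table, the value was 0.0181.

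Region by region, most members had positive values with the other block. When the summed depth-corrected values of the first block were correlated with each other region of the table, all 22 regions of the second block had positive values (median 0.0819, range 0.0108 to 0.171), where 667 of the 988 other regions of chromosome 13 and 48.9% of all 23140 regions outside the blocks did. A median of 94.6% of those outside regions lay below a region of the second block, and 11 of the 22 reached the outside regions' 95th percentile of 0.0833. In the other direction, 17 of the 18 regions of the first block had positive values with the second block (median 0.0839, range -0.0162 to 0.217), as did 615 of the 988 other regions of the chromosome, and 9 reached the 95th percentile of 0.0848. The region from 21826012 to 21827494 had the highest value, 0.217, with the second block, and the region from 21807746 to 21808709 had 0.201. In the second block the region from 23625614 to 23625782 had 0.171 with the first block and that from 23837346 to 23838890 had 0.169. These are descriptions of 1 sample and carry no test.

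The other regions of chromosome 13 were measured in the same way, and the part of shared chromosome or distance in the result was not tested. Of the 988 regions of chromosome 13 outside the blocks, 12.7% reached the same percentile with the first block and 9.31% with the second, where 5% of all outside regions do by definition. Of the 19 regions 1 to 2 Mb from the first block and outside the blocks, 15 were positive and 3 reached it (median 0.0322). Of the 13 regions as far from the second block, 9 were positive and 1 reached it (median 0.0218). The mean correlation of single pairs was 0.00963 between the first block and the 15 regions of the stretch between the blocks, and 0.0152 between the second block and that stretch, whose regions lie mostly on its side. With regions on other chromosomes the means were -0.000542 and -0.000476, and with the 5044 of those regions open in at least 25% of cells they were 0.000247 and 0.000708.

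Single pairs are given here by the size of their correlation, and each rests on few cells. Within the blocks, the highest was between the region from 21871258 to 21871582 and that from 22097873 to 22098958, 226.3 kb apart, with 0.190. Both were open in 17 cells where 9.37 were expected. The region from 21842188 to 21842571 and that from 21871258 to 21871582 followed with 0.180, both open in 10 cells where 4.45 were expected. In the second block the narrowest member and the region from 23837346 to 23838890 reached 0.174 (26 cells, 16.9 expected). The region from 23610869 to 23611596 and that from 23626858 to 23627456 reached 0.173 (15 cells, 10.6 expected), and the region from 23677189 to 23678367 and that from 23712804 to 23714527 reached 0.162 (30 cells, 21.4 expected). Between the blocks the highest was 0.182, for the region from 21875025 to 21875374 and that from 23673279 to 23673914, both open in 16 cells where 7.69 were expected. Next came the region from 22120642 to 22121158 with that from 23626858 to 23627456 at 0.172 (25 cells, 14.2 expected), and the region from 21807746 to 21808709 with that from 23665930 to 23666580 at 0.155 (33 cells, 20.5 expected). These pairs were picked for their size among all pairs of members, so their values lean high.

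Scaled by depth, the histone regions differed only slightly between the groups of cells that the rest of the genome separates. Cells were grouped into 3 clusters from the autosomes other than chromosome 13, so that the histone regions had no part in the grouping, and 1 cell with under 1000 fragments was left out. Cluster 1 had 46.1% of the clustered cells, cluster 2 had 27.5% and cluster 3 had 26.3%, with median depths of 3628, 4823 and 3690 open regions. The histone regions were open in 15.8%, 23.3% and 18.7% of the combinations of region and cell. Divided by the number expected from depth these were 0.933, 1.04 and 1.06. Both blocks had nearly the same ratios, 0.936 and 0.932 in cluster 1, 1.04 and 1.04 in cluster 2, and 1.06 and 1.07 in cluster 3. The other 988 regions of chromosome 13 gave 0.978, 1.06 and 0.957. The median cell had 6, 8 and 7 histone regions open, and the ranges overlapped almost wholly (0 to 32, 0 to 29 and 0 to 23). The ratios are close to 1, and in clusters 2 and 3 they changed side under other settings. In cluster 2 the ratio was 0.979 with depth taken from chromosome 13 and 0.934 among the cells of the second title set. With 2 clusters, it was 0.983 in the part holding most cells of cluster 2. In its other alternatives cluster 2 stayed above 1, from 1.02 to 1.11. In cluster 3 the ratio was 0.891 among the cells of the third title set. In the 8 other alternatives cluster 3 stayed above 1, from 1.05 to 1.11. For cluster 1, or the part holding most of its cells, the ratio was below 1 in every alternative run, from 0.874 to 0.983.

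**Figure D5:**
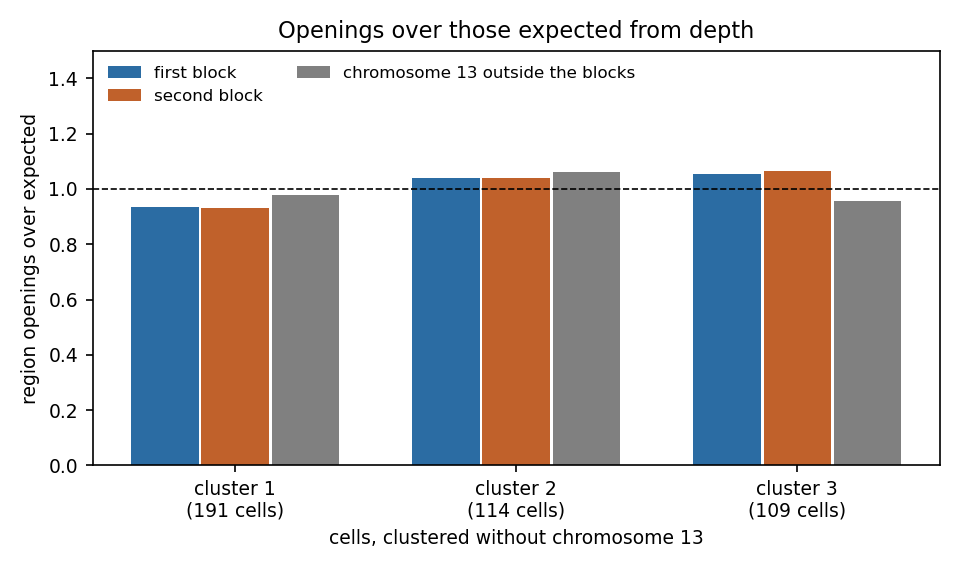
Region openings divided by those expected from depth (vertical axis) in the 3 clusters of cells made without chromosome 13, for the first block, the second block and the other 988 regions of chromosome 13. The dashed line marks 1. Both histone blocks stand together in each cluster, at about 0.93, 1.04 and 1.06.

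Single histone regions that differed between clusters were rare beside the rest of the chromosome. Scaled by depth, 2 of the 40 members (5%) differed at least 2-fold between 1 cluster and all other cells in any of the 3 comparisons, where 43.2% of the other regions of chromosome 13 did. Regions open in few cells pass such a rule more easily. Among regions open in at least the members' median share the counts were 0 of 20 members and 16.1% of others, and among those below it 2 of 20 and 59.3%. By cluster and direction, 0 members were higher and 1 was lower in cluster 1, where 6.13% and 12.7% of all regions of chromosome 13 were. In cluster 2 it was 1 and 1, where 13.1% and 7.30% were, and in cluster 3 it was 0 and 0, where 9.34% and 27.8% were. The region from 21871258 to 21871582 was open in 9 cells of cluster 1 (4.71%, interval 2.18% to 8.76%) and 32 other cells (14.3%, 10.03% to 19.6%), a depth-scaled ratio of 0.396. The same region was open in 21 cells of cluster 2 (18.4%, 11.8% to 26.8%) and 20 other cells (6.67%, 4.12% to 10.1%), a ratio of 2.04. The region from 23864492 to 23864741 was open in 6 cells of cluster 2 (5.26%, 1.96% to 11.1%) and 31 other cells (10.3%, 7.13% to 14.3%), a ratio of 0.376. All other members had ratios between 0.5 and 2 in every cluster.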

How the data were processed

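The deposited table holds whole-number signal for each region and cell. Per the labels, each of the 415 columns is 1 cell, and the submitters' processing notes name MACS2 and mm9 with no role. For the aligner, duplicates and the choice of regions, the answer is not given in the sources used here. From the deposited signal, 37.6% of the values above 0 equal 148 and 51.1% are multiples of 74, so 148 was read as 1 fragment. No 2 cells held identical values.

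Cells had 756 to 12267 open regions and 791 to 25069 fragments, every region was open in at least 31 cells, and shares carry exact 95% intervals. The depth fit, correlations and shares were computed with numpy 2.4.6, pandas 2.3.3 and scipy 1.17.1 in Python 3.11.15 and tested on simulated data. Pairs numbered 153 within the first block, 231 within the second and 396 between them, and the 4 depth classes held 103 or 104 cells. Clusters (191, 114 and 109 cells) came from log TF-IDF (scaled by 10000), components 2 to 10 and k-means with 3 clusters and 50 starts in scikit-learn 1.9.0. Thinning weighted each open value by 1500 over the cell's open regions.

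The members and lists were chosen with earlier results of these data known. Regions named are the 5 most and 2 least open of each block (with ties), the widest, the narrowest and that of most fragments per open cell, the 5 pairs within and 3 between blocks of highest correlation, and members past 2-fold in a cluster. Promoters are the first per class in symbol order within the 2 runs, passing over H2bc1 and H2ac1, which 8 other genes set apart. The regions of highest correlation with the other block were chosen after their values were seen. The alternatives were the definition of open, depth, block limits, pair distance, clusters and, added after seeing the data, sets of cells by title number and leaving out the 10 deepest cells.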

Additional observations from a re-analysis of the deposited data

How the results depend on the processing

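The shares moved with depth and with what counted as open. The median share of the first and second block was 3.73% and 4.10% with more than 1 fragment required (3.37% over all regions), 24.3% and 25.5% in cells at or above the median depth (21.2% over all), and 5.55% and 6.28% after thinning (4.96% over all). With blocks widened by 100 kb on each side it was 16.6% and 15.7%. The spread of open regions per cell stayed between 1.74 and 2.08 under the 6 alternatives run for it.

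The mean correlations within the first block, within the second block and between the blocks stayed positive in every alternative run. They were 0.00810, 0.0109 and 0.00954 with more than 1 fragment required. In cells at or above the median depth they were 0.0261 within the first block and 0.0293 between the blocks, and with cell depth from chromosome 13 they were 0.0108 and 0.0181. In the sets of cells by title number, the value within the first block was 0.0244 in the second set and 0.00917 in the fourth, and that within the second block was 0.0310 in the first set. Between the blocks the 4 sets gave 0.0301, 0.0172, 0.0245 and 0.0173. Fits within clusters, leaving out regions of very high signal, pairs at least 10 kb apart and leaving out the 10 deepest cells moved no mean correlation by more than its SD over chromosomes.

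Openings over expected in cluster 1 were 0.874 in the first title set and 0.983 in the matching part when 2 clusters were made. In cluster 2 they were 0.979 with depth from chromosome 13, 1.11 and 0.934 in the first and second title sets and 0.983 with 2 clusters. In cluster 3 they were 0.891 in the third title set. With 2 clusters, 1 part held most cells of both cluster 1 and cluster 2. With 4 clusters, cluster 1 was divided, with 0.890 in the part holding most of its cells and 1.12 in another. The cause was not tested. No paired analysis was possible because all cells belong to 1 group. With 1 sample, depth and the counting of cells limit the precision, and differences between cultures were not measured.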
